A study of Mus musculus with 3 samples.

Results

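Between 85 and 90 Mb of mouse chromosome 3, 309 exonic positions carried a base other than the reference in essentially every read of 3 haploid embryonic stem cell (ESC) lines. The positions were chosen by their reads, as single-base substitutions with at least 10 reads in each of the 3 lines. In each line, at least 80% of the reads with the reference or alternate base had the alternate one. Olfactory and vomeronasal receptor genes were left out. Such positions are called fixed here. They were 309 of the 3765 fixed positions in a table of 11635 exonic positions over the genome (8.21%), and 39.4% of the 784 fixed positions of chromosome 3. Because the alternate share chose them, their shares are a description and no test was made.

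The genomes of 3 related lines were sequenced whole, from 1 library each. O48 is the parental wild-type line (passage 40), an androgenetic haploid ESC line that carries only a paternal genome and lacks the *H19* and *IG* differentially methylated regions (DMRs). ΔDSM-O48-1 (passage 60) is O48 with CRISPR-Cas9 mutations in *Dmpk*, *Six5* and *Mbnl1*, and ΔDSMD-O48-2 (passage 70) is ΔDSM-O48-1 with a further mutation in *Dmwd*. Both mutant lines are single clones, all 3 lines carry the DMR deletions, the labels give the strain of all as C57BL/6, and all were grown in 2i/Lif medium. The sequencing was made to look for off-target sites of the guides, and with 1 library per line there is no replicate check.

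A haploid cell holds a single copy of each autosome, so every read of a site in such a genome normally shows the same base. A substitution in a coding exon is synonymous when the codon keeps its amino acid and nonsynonymous when it does not. Substitutions between the purines (A, G) or between the pyrimidines (C, T) are transitions, which are the more frequent kind among inherited variants of mammals.

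The sequences below show 7 stretches of coding sequence where fixed positions lie close together or change a tryptophan. Each is given 5′ to 3′ on the gene's coding strand from the GRCm38 (mm10) reference of chromosome 3, first as in the reference and then as in all 3 lines. Capitals mark the bases that differ.
*Fcrl5* exon 4, chr3:87443665-87443694, plus strand, reference: cCtcaaagttctgagTtctAtattcatcGt
*Fcrl5* exon 4, the 3 lines: cAtcaaagttctgagCtctCtattcatcAt
*Fcrl5* exon 6, chr3:87446455-87446484, plus strand, reference: gggagtatTactgtgaagctaAcaacagcc
*Fcrl5* exon 6, the 3 lines: gggagtatCactgtgaagctaCcaacagcc
*Etv3l* exon 6, chr3:87560137-87560166, plus strand, reference: tgctgtctcCggaacctccAaggtggcctg
*Etv3l* exon 6, the 3 lines: tgctgtctcTggaacctccGaggtggcctg
*Pear1* exon 22, chr3:87751683-87751712, minus strand, reference: ggcgtgagaaccatGTcacactgcccgctg
*Pear1* exon 22, the 3 lines: ggcgtgagaaccatACcacactgcccgctg
*Nes* exon 4, chr3:87976038-87976067, plus strand, reference: aTggaaaccctggaggctctaggagatGag
*Nes* exon 4, the 3 lines: aAggaaaccctggaggctctaggagatAag
*Nes* exon 4, chr3:87976979-87977008, plus strand, reference: aattgtacTGctagaaagcaAgaaccagag
*Nes* exon 4, the 3 lines: aattgtacCActagaaagcaGgaaccagag
*Rhbg* exon 4, chr3:88247499-88247528, minus strand, reference: gggctgttcctctcaTgggtcctctacaga
*Rhbg* exon 4, the 3 lines: gggctgttcctctcaCgggtcctctacaga

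Nearly all positions listed for the window were fixed. The table holds 339 single-base positions there, and 309 of them (91.2%) met the rule, beside 30.8% of the positions outside the window, 52.4% of those elsewhere on chromosome 3 and 32.6% of the table as a whole. Positions in olfactory and vomeronasal receptor genes stay in these totals, although the rule left them out, so they count as not fixed. The window lost none this way (309 members with these genes kept), so the shares outside it may be understated. These shares state where the rule found its positions and carry no test.

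The fixed positions of chromosome 3 lay in 1 long run, and the window is a middle part of it. With neighbours up to 2 Mb apart joined, a distance set after the positions were seen, 775 of the 784 fixed positions (98.9%) fell between chr3:74814858 and chr3:96854557, a stretch of 22.0 Mb. Before it, 33.9 Mb held no fixed position, and after it 10.6 Mb held none. Olfactory and vomeronasal receptor genes, left out by the rule, are not covered by these counts. The 9 positions outside the run amounted to 0.194 per 100 kb of exon, beside 54.1 within it. *Mbnl1*, the targeted gene on this chromosome (chr3:60472559-60629750), lay 14.2 Mb before the run.

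Per 100 kb of exon, the window held 62.1 fixed positions. The neighbouring 5 Mb windows held 50.7 (80 to 85 Mb, 100 positions) and 80.5 (90 to 95 Mb, 277 positions), and the window from 75 to 80 Mb held 56.1 (67 positions). The density fell to 9.78 from 70 to 75 Mb and to 4.27 from 95 to 100 Mb. Of the 31 other windows, 20 held no fixed position and 27 held fewer than 10, and together they reached 8.51 per 100 kb of exon. The density is per base of annotated exon, so it does not rest on how many genes a window holds. Any exons of olfactory and vomeronasal receptor genes are among these bases, although positions in those genes were left out.

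**Figure D1:**
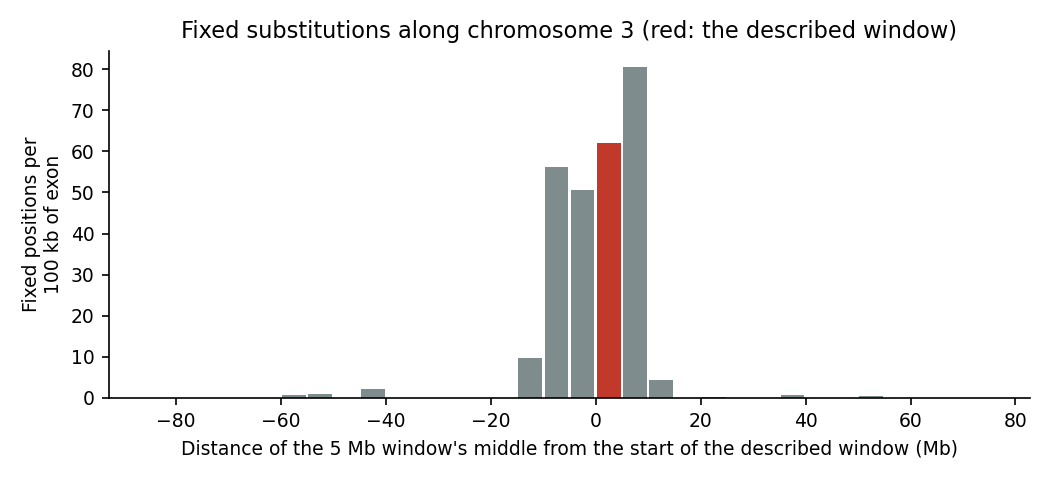
Fixed positions per 100 kb of annotated exon in each 5 Mb window of chromosome 3. The horizontal axis is the distance of the window's middle from the start of the described window in Mb, the bars are windows, and the red bar, at 62.1, is the described window. Values between 50.7 and 80.5 were limited to 4 neighbouring windows.

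Within the window, the positions were concentrated in 1 Mb. From 87 to 88 Mb lay 203 of the 309 (65.7%), or 191 per 100 kb of exon, and 19 of the 23 protein-coding genes that reach into it had at least 1 there. From 85 to 87 Mb there were 22 positions (22.4 per 100 kb of exon, 7 of 10 genes). From 88 to 89 Mb there were 59 (38.1 per 100 kb of exon, 12 of 36 genes), and from 89 to 90 Mb 25 (18.1 per 100 kb of exon, 9 of 40 genes). Genes that cross a boundary count on both sides, and *Ash1l* had members on both. The bin from 87.25 to 87.5 Mb, which holds *Fcrls*, *Cd5l*, *Fcrl1* and most of *Fcrl5*, had 77 positions and 584 per 100 kb of exon, the highest of the 20 bins of 250 kb. The bins that followed had 49 (229 per 100 kb) and 74 (165 per 100 kb), and 3 bins had none.

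**Figure D2:**
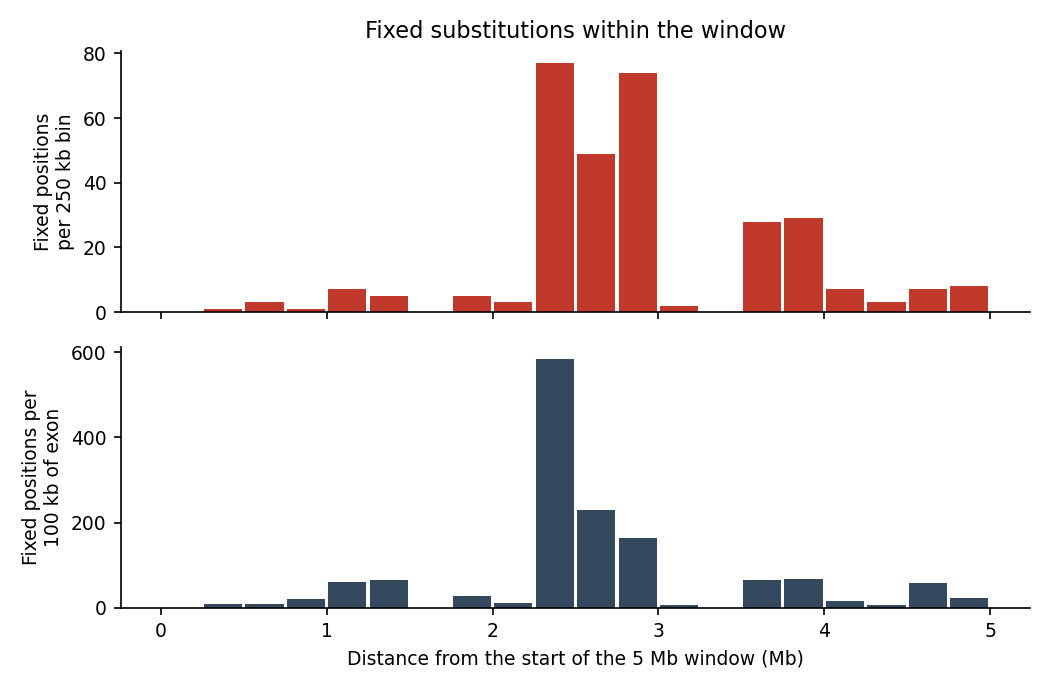
Fixed positions in bins of 250 kb within the window, as numbers (top) and per 100 kb of annotated exon (bottom), against the distance from the window's start in Mb. The 3 bins from 2.25 to 3 Mb hold 77, 49 and 74 positions, and 3 of the 20 bins hold none.

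The positions came close together and were separated by long gaps. The median distance between neighbours was 237 bp, 154 positions (49.8%) had a neighbour within 100 bp and 252 (81.6%) within 1000 bp. In 22 pairs the distance was at most 10 bp, and 2 pairs were adjacent bases. The longest gap, 560 kb, ran from *Lrba* to *Dclk2* and contained the exons of 1 other coding gene, *Mab21l2*. A gap of 290 kb from *Rhbg* to *Mex3a* contained 14 coding genes without a fixed position, among them *Lmna* (the nuclear lamins A and C), *Cct3* (a chaperonin subunit), *Sema4a* (a semaphorin) and *Bglap* (osteocalcin). The first member lay at chr3:85332002 and the last at chr3:89957039. The nearest fixed positions outside were in *Fbxw7*, 45097 bp before the window, and in *Tpm3*, 79540 bp after it.

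Reads at the members carried the alternate base with few exceptions in every line. In O48 the depth ranged from 10 to 52 reads (median 31) and 8 of 9683 reads had the reference base (0.0826%, 95% Clopper-Pearson interval 0.0357 to 0.163). In ΔDSM-O48-1 the depth ranged from 11 to 52 (median 32) with 5 of 9861 reference reads (0.0507%, 0.0165 to 0.118). In ΔDSMD-O48-2 it ranged from 10 to 49 (median 30) with 8 of 9453 (0.0846%, 0.0365 to 0.167). The rule limits these shares, and the intervals cover counting error only. Reads counted as neither base are not in the shares. At *Arhgef2* C88642559T, 30 of 33, 28 of 32 and 18 of 22 reads were alternate in O48, ΔDSM-O48-1 and ΔDSMD-O48-2, with no reference read. At *Isg20l2* A87931752G it was 35 of 39 reads in O48, also with no reference read. At 290 of the 309 positions (93.9%) no line had a reference read, and none of the other 19 had one in more than 1 line.

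Depth at the members was close to that of the table. The median depth over all positions was 32, 33 and 32 reads in O48, ΔDSM-O48-1 and ΔDSMD-O48-2, so the members stood at 0.969, 0.970 and 0.938 of it. At least 20 reads in every line covered 276 members. The genotype was homozygous alternate at 308 members in O48 and at 309 in both mutant lines. The exception was *Dap3* C88921203A, in the 3′ UTR of a mitochondrial ribosomal protein gene. It had 3 reference reads of 16 in O48 (81.25% alternate), 0 of 27 in ΔDSM-O48-1 and 0 of 32 in ΔDSMD-O48-2.

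**Figure D3:**
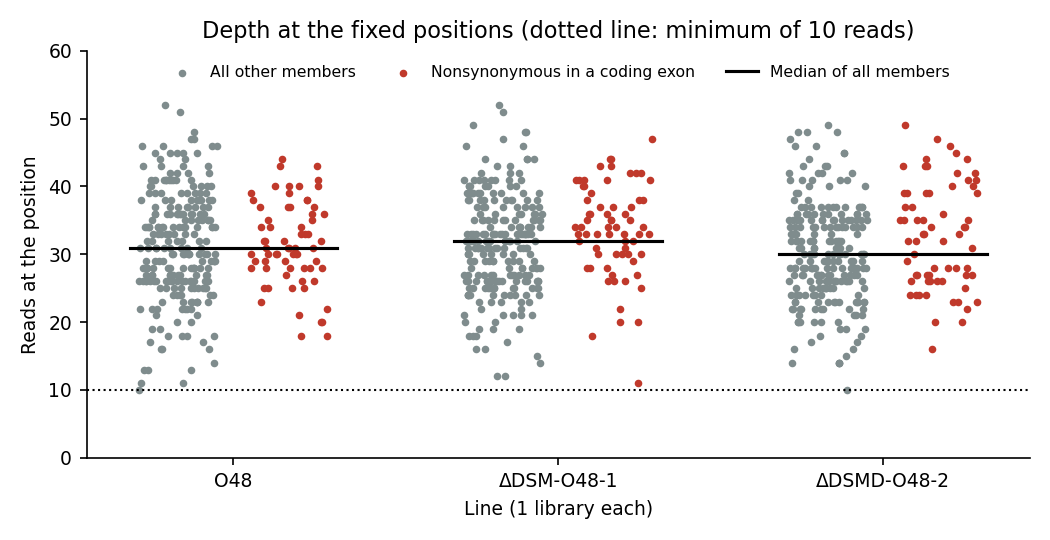
Reads at each of the 309 fixed positions in the 3 lines, with 1 point per position, the 67 nonsynonymous ones in coding exons in red, and a bar at the median of all members (31, 32 and 30 reads). Depths overlap fully between the lines, and the dotted line marks the minimum of 10 reads.

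The members nearest to the thresholds were few. By depth, *Gm10705* T87207546C had 10, 23 and 10 reads in O48, ΔDSM-O48-1 and ΔDSMD-O48-2, while *Fcrl1* C87389383T (18, 11 and 16), *Syt11* G88746583A (11, 19 and 14) and *5830417I10Rik* T88821433A (11, 15 and 14) had at least 11. Just outside, G88823279A in *1500004A13Rik* had 9, 13 and 16 reads, all alternate. By share, the lowest member after *Dap3* was *Fcrl1* C87389383T, with 93.75% alternate reads in ΔDSMD-O48-2. No position of the window with 10 or more reads in every line had a share between those of the members and those of the mixed sites described next.

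Of the 30 positions that failed the rule, 23 also showed no reference read in any line with a genotype. In 17 of them at least 1 line had fewer than 10 reads, and in the other 6 at least 1 line had no genotype. They fell in *Gon4l*, in the noncoding genes *1500004A13Rik*, *5830417I10Rik* and *Gm10705*, and, 2 bases apart, in the 3′ UTR of *Kcnn3*, where O48 had 17 alternate reads at both sites, ΔDSM-O48-1 had 13 and 12, and ΔDSMD-O48-2 had no genotype. In the neighbouring genes *5830417I10Rik*, *1500004A13Rik* and *Gon4l*, which had 18 members, 21 positions failed the rule, 2 of them by share, so the count of members there depends on depth.

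The remaining 7 positions were mixed. At 4 sites in a stretch of 12 bases in the *Sema4a* 5′ UTR, O48 had 6 alternate reads of 29 to 31, ΔDSM-O48-1 had 0 to 2 and ΔDSMD-O48-2 had 0. At 2 sites of *1500004A13Rik*, 6 bases apart, O48 had 3 of 19 and 4 of 20 alternate reads, ΔDSM-O48-1 had 0 of 14 and 2 of 14, and ΔDSMD-O48-2 had none. *Krtcap2*, a subunit of the oligosaccharyltransferase, had a stop codon call (G89246873T) in 3 of 22 reads of O48, 0 of 35 of ΔDSM-O48-1 and 0 of 44 of ΔDSMD-O48-2. A fixed synonymous position also lay in *Krtcap2*.

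In the table's own annotation the members were 114 positions of the 3′ UTR, 98 synonymous, 81 nonsynonymous, 12 of the 5′ UTR, 3 that gain a start codon in the 5′ UTR, and 1 synonymous stop. Among members, 36.9% lay in the 3′ UTR, beside 34.5% of the 3456 fixed positions outside the window. The shares were 31.7% against 27.9% for synonymous and 26.2% against 28.0% for nonsynonymous positions. No member was annotated as stop gained, stop lost or splice site, classes that held 26, 29 and 8 fixed positions outside the window.

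When placed on RefSeq transcripts of the same build, 67 of the 81 nonsynonymous and 90 of the 98 synonymous positions lay in a coding exon. The other 14 nonsynonymous calls were 12 in exons of noncoding genes, 1 in the 3′ UTR of *Rit1* and 1 outside RefSeq transcripts. Of those 12, 7 lay in the long noncoding RNA *1500004A13Rik*. The other synonymous calls were 6 in exons of noncoding genes, 1 in the 3′ UTR of *Rit1* and 1 outside RefSeq transcripts. The synonymous stop (T88823024C) also lay in an exon of *1500004A13Rik*, and so not in a RefSeq coding exon. Amino acid changes below are those of the 67, numbered along the RefSeq protein. Each of the 67 is also among the table's own entries, which number some of them on several isoforms (*Arhgef2* M679T also stands as M650T).

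The substitutions were mostly transitions, 233 of 309 (75.4%, 3.07 per transversion). The share was 70.8% over the fixed positions outside the window, 66.5% over the other fixed positions of chromosome 3, and 49.2% over the 6335 positions of the whole table whose alternate share was below 0.8 in all 3 lines. Changes of G to A or C to T made up 118 members, of A to G or T to C 115, and each transversion type between 16 and 24. A CpG dinucleotide of the reference held 56 members (18.1%), and 41 of the 118 G to A or C to T changes (34.7%).

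The 309 positions fell in 52 genes, of which 46 are protein-coding. The window overlaps 106 protein-coding genes, so 43.4% of them had a member and 60 had none. The 10 genes with most members held 183 (59.2%). *Fcrl5* and *Nes* had 34 each, followed by *Fcrls* and *Pear1* with 20 each, *Fcrl1* with 17, *1500004A13Rik*, *Arhgef2* and *Cd5l* with 12 each, and *Etv3* and *Lrrc71* with 11 each. In 15 genes there was 1 member. Nonsynonymous members in a coding exon fell in 22 genes, and *Nes* and *Fcrl5* held 28 of the 67 (41.8%).

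**Figure D4:**
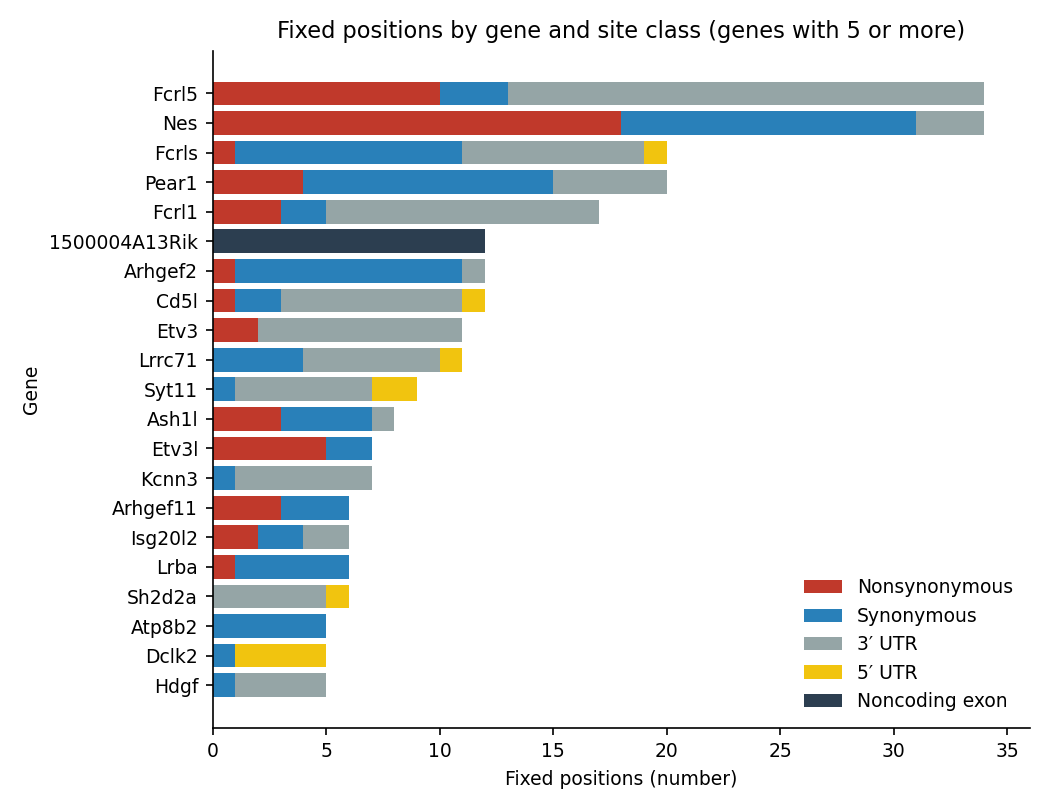
Number of fixed positions in each gene with 5 or more, split by site class after placement on RefSeq transcripts. *Fcrl5* and *Nes* have 34 each, 21 of those of *Fcrl5* lie in the 3′ UTR, and 18 of those of *Nes* are nonsynonymous.

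The genes were grouped into role lists, and each list is read beside all 106 coding genes, of which 46 (43.4%) had a member, with 67 nonsynonymous among 288 members and a median of 0 per gene. From 87 to 88 Mb, 19 of 23 coding genes had a member, whatever their role. *Fcrl1*, *Fcrl5*, *Fcrls*, *Cd5l*, *Sh2d2a* and *Nes* all lie there. A list's share above 43.4% therefore cannot be told apart from where its genes lie. The genes of immune receptors and their ligands held the most members of the lists. Of 8 such genes in the window, 6 had members, 91 in all with 15 nonsynonymous, and the median was 9 per gene. *Fcrl1*, *Fcrl5* and *Fcrls* are Fc receptor-like genes, which encode immunoglobulin-domain proteins of B cells and, for *Fcrls*, of microglia. Together these 3 genes had 71 members, of which 14 were nonsynonymous, 15 synonymous, 41 in the 3′ UTR and 1 in the 5′ UTR.

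*Fcrl5* (chr3:87435777-87500678, plus strand, 596 residues), an Fc receptor-like gene of B cells, had 10 nonsynonymous, 3 synonymous and 21 3′ UTR positions. The transcript that encodes the 596 residues held 25 of the 34 members. The others, from chr3:87499709 to chr3:87500544, lay in the 3′ UTR of another isoform. All 10 nonsynonymous changes fell in 3 neighbouring exons and between residues 161 and 376. These exons, 4, 5 and 6, hold 14.6%, 15.9% and 15.7% of the coding sequence, and 2 of the 3 synonymous positions lay there too. Exon 4 held 5 (P161H, F166L, Y167S, R170H and V199G) and no synonymous member. Exon 5 held K273R and S287R with 2 synonymous positions, and exon 6 held K346E, Y372H and N376T with none.

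The first 4 changes of *Fcrl5* exon 4 lie in the 30 bases shown above. Read depth at them was 28 to 31 in O48, 22 to 26 in ΔDSM-O48-1 and 39 to 43 in ΔDSMD-O48-2. No reference read was found at any of them. K346E, which reverses a charge, had 23, 30 and 42 reads in O48, ΔDSM-O48-1 and ΔDSMD-O48-2, of which 1 read of ΔDSMD-O48-2 had the reference base.

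The other immune genes had fewer protein changes. *Fcrls* had 10 synonymous positions and 1 nonsynonymous one, S277G, covered by 29, 33 and 31 reads in O48, ΔDSM-O48-1 and ΔDSMD-O48-2. *Fcrl1*, which is expressed on B cells, had P102A, L232P and P271S beside 2 synonymous and 12 3′ UTR positions. *Cd5l*, a secreted scavenger protein of macrophages, had N197S (21, 41 and 23 reads), 2 synonymous positions and 8 in the 3′ UTR. *Sh2d2a*, a T cell adaptor, had 6 members with none in a coding exon, and *Il6ra*, the ligand-binding chain of the interleukin 6 receptor, had 2 synonymous ones. *Cd1d1* and *Cd1d2*, which present lipid antigens, had none.

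Of the 13 genes listed for brain and nerve, 9 had a member (69.2%, beside 43.4% of all coding genes), with 72 members, 21 of them nonsynonymous, and a median of 1 per gene. This list is loose and also holds genes of broader roles, such as *Arhgef11* and *Rit1*. *Nes* alone held 34 of the 72 and 18 of the 21. *Nes* (chr3:87971093-87980451, plus strand, 1864 residues) encodes nestin, an intermediate filament protein of neural progenitor cells. It had 18 nonsynonymous, 13 synonymous and 3 3′ UTR positions. Exon 4, with 82.4% of the coding sequence, held 16 of the nonsynonymous and 12 of the synonymous positions.

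The changes in nestin ran from residue 239 to residue 1821. In order they were R239L, R319G, T458S, M535K, E544K, G558R, S570L, L587S, M673I, L851P, K855R, E900D, R1008G, A1404T, G1410S, A1591V, T1684A and G1821D. Between residues 535 and 587 lay 5 of them, and 3 of those (M535K, E544K and G558R) make the residue more positive. M535K had 40, 41 and 41 reads in O48, ΔDSM-O48-1 and ΔDSMD-O48-2, and E544K had 37, 41 and 43, all alternate. R239L had 20, 31 and 30 reads, of which 1 in ΔDSM-O48-1 had the reference base.

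**Figure D5:**
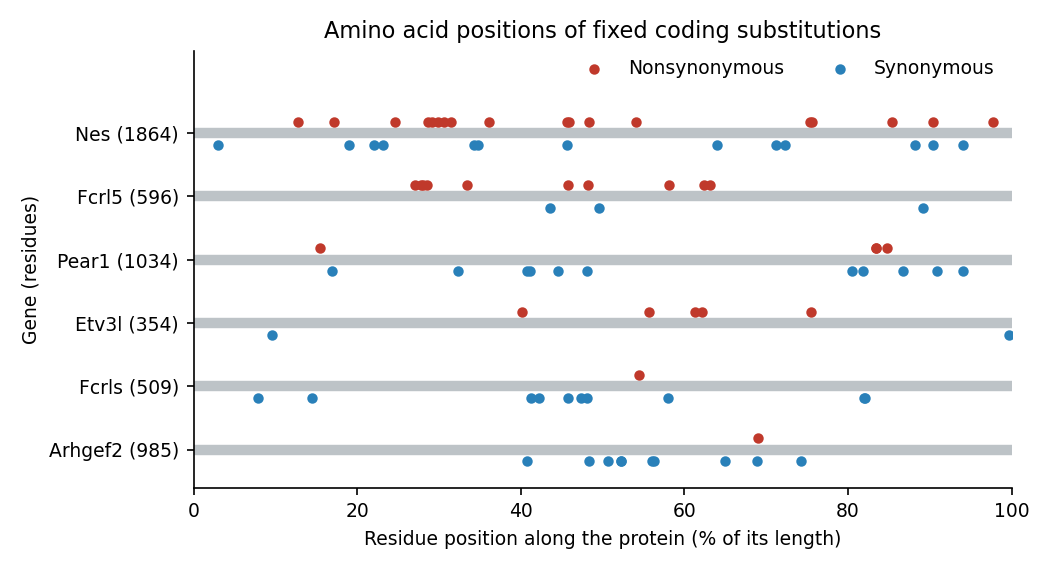
Fixed nonsynonymous (red, above) and synonymous (blue, below) positions along 6 proteins, as a percentage of each protein's length, with the number of residues beside the gene. The 10 nonsynonymous positions of *Fcrl5* lie in 3 exons, those of *Nes* spread over most of the protein, and *Arhgef2* and *Fcrls* have 10 synonymous and 1 nonsynonymous position each.

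The other genes of the brain and nerve list had few protein changes. *Arhgef11*, a guanine nucleotide exchange factor, had M147T, S806A and Y933H with 3 synonymous positions. *Syt11*, a synaptotagmin of membrane traffic, had 9 members and *Kcnn3*, a calcium-activated potassium channel, had 7, and in each 6 lay in the 3′ UTR and 1 was synonymous. *Lrrc71* had 11 (4 synonymous), *Rit1*, a small GTPase, 2, and *Chrnb2*, a nicotinic receptor subunit, *Mex3a* and *Kirrel* 1 each, none of which changed a residue. *Bcan* and *Hapln2*, of the brain's extracellular matrix, had none.

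Nuclear genes had 37 members in 8 of 14 listed genes, 12 of them nonsynonymous (median 1 per gene). The share of genes with a member was 57.1%, beside 43.4% of all coding genes. *Etv3*, an ETS transcription factor, had M410I and V454A with 9 3′ UTR positions and no synonymous one. *Ash1l*, a histone methyltransferase for lysine 36 of histone H3, had R51W, S1668F and S1706C with 4 synonymous positions. R51W was covered by 18, 44 and 46 reads in O48, ΔDSM-O48-1 and ΔDSMD-O48-2, and S1668F by 39, 38 and 49, all alternate. *Gon4l*, a nuclear corepressor, had P258L, A1079S and S2068P and no other member.

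*Isg20l2*, a nucleolar exonuclease, had Q90R and P172L. *Prcc* had G34E, with 32, 18 and 20 reads, and *Pbxip1*, which binds PBX homeodomain proteins, had W410R, with 38, 36 and 26. *Hdgf* (5 members) and *Mef2d*, a MADS box factor of muscle and nerve (1), had no nonsynonymous position, and *Lmna*, *Pygo2* and *Zbtb7b* had no member. *Etv3l*, a relative of *Etv3* that was not on the lists, had 5 nonsynonymous positions and 2 synonymous ones over 354 residues. They were R142C, S197G, R217W, Q220R and S267P. R217W and Q220R lie 10 bases apart in the stretch shown above, with 30, 30 and 35 reads and 31, 32 and 33 reads in O48, ΔDSM-O48-1 and ΔDSMD-O48-2.

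Genes of RNA and protein synthesis had 17 members in 6 of 8 listed genes and no nonsynonymous one (median 2 per gene). Over all coding genes 43.4% had a member and 67 of 288 members were nonsynonymous, so 17 members are few for reading a lack of them. *Rps3a1*, a protein of the small ribosomal subunit, had 3 synonymous positions and 1 in the 3′ UTR. *Dap3* had 4 in the 3′ UTR, *Ssr2*, of the translocon-associated complex, had 2 in the 5′ UTR and 1 in the 3′ UTR, and *Mrpl24*, *Gatb* and *Rrnad1* had 2 each.

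The other lists had fewer members. Membrane traffic and signalling genes had 8 in 3 of 11 genes, with T420M among 6 in *Lrba*, W195R in *Rhbg* and 1 3′ UTR position in *Sh3d19*. W195R replaces a tryptophan of an ammonium transporter and was covered by 28, 42 and 26 reads in O48, ΔDSM-O48-1 and ΔDSMD-O48-2. A mixed list of 18 genes, with enzymes of metabolism but also genes of other roles such as *Cct3*, *Bglap* and *Hcn3*, had 6 in 2 genes, 5 synonymous ones in the phospholipid flippase *Atp8b2* and Q188R in *Clk2*, a kinase of splicing factors. Cell surface and adhesion genes had 1 in 1 of 10, R266H in *Dcst2*, while the ephrins *Efna1*, *Efna3* and *Efna4* had none. The median number of members per gene was 0 in each of these lists, as over all coding genes of the window.

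Genes outside the lists with protein changes were *Pear1*, *Arhgef2*, *Prss48*, *Gm6570* and *Msto1*, besides *Etv3l*. *Arhgef2*, a microtubule-bound guanine nucleotide exchange factor, had 10 synonymous positions and M679T (40, 37 and 27 reads). *Prss48*, a serine protease, had M244I and G43D, and these were its only members. *Gm6570* had P109Q and L13S, and *Msto1*, a regulator of mitochondrial shape, had D106E. *Pear1*, a receptor of platelets and endothelium, had 11 synonymous and 4 nonsynonymous positions (T160A, V862A, V862I and E876D).

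In 3 codons, 2 members fell together, and the table lists each substitution alone. In *Pear1* codon 862, GTC in the reference reads ACC with both changes, which gives V862T rather than the V862I and V862A of the separate entries. C87751698T had 30, 34 and 24 reads and A87751697G had 31, 35 and 24 in O48, ΔDSM-O48-1 and ΔDSMD-O48-2, all alternate, so no read held the reference base at either site. In *Nes* codon 851, CTG reads CCA, and in *Arhgef11* codon 933, TAT reads CAC. In these 2 codons the second change is silent and the joint changes, L851P and Y933H, are those the table gives.

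Over the 67 nonsynonymous positions, depth ranged from 11 to 49 reads, 64 had at least 20 reads in every line, and 63 had no reference read in any line. The charge of the residue changed at 21, towards positive at 9 and towards negative at 12, with histidine taken as neutral. Proline was gained at 4 and lost at 6, and cysteine was gained at 2 (*Etv3l* R142C and *Ash1l* S1706C) and lost at none. Tryptophan was lost at 2 (*Rhbg* and *Pbxip1*) and gained at 2 (*Etv3l* R217W and *Ash1l* R51W). Changes that make a stop codon or remove a start codon have classes of their own, so none is among the 67.

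The 3 start-gained calls do not create an ATG. *Cd5l* C87357985T, 17 bases before the annotated start, turns the local sequence into a TTG. *Lrrc71* G87748507A, 43 bases before it, and *Syt11* G88772580A, 256 bases before it, each make a CTG. They had 26, 38 and 21 reads in *Cd5l*, 26, 49 and 26 in *Lrrc71*, and 31, 35 and 42 in *Syt11* in O48, ΔDSM-O48-1 and ΔDSMD-O48-2. The 3′ UTR positions fell in 27 genes, and *Fcrl5* (21), *Fcrl1* (12), *Etv3* (9), *Fcrls* (8) and *Cd5l* (8) held 58 of the 114 (50.9%).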

How the data were processed

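Whole-genome sequencing data of 3 haploid ESC lines, 1 library each, were used. The deposited table lists single-nucleotide variants at exons, called over the 3 libraries together. The authors deposited raw counts for each line, the reads covering a site and those with the reference base, not normalized, and the number with the alternate base stands beside them, joined by a comma where a site has several alternates. The deposited quality scores (Phred scale) and the authors' allele fraction, a share among genotypes, gave no result. The submitters' processing notes name BWA 0.7.12, CASAVA 1.8.2, SAMtools, Picard, GATK and mm10 without roles. Filters on the table are not given in the sources used here.

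The table's 14685 entries were reduced to 1 per position with the effect of highest impact, and 91 of 11635 positions without a single alternate base were left out. A member had at least 10 reads and an alternate share of at least 0.8 in all 3 lines. At all 309 the reference base was that of GRCm38. Transcripts, codons and exon lengths were read from RefSeq GRCm38.p6, and gene names of the table were replaced by RefSeq symbols where an exon held the position. Reads were given with exact 95% Clopper-Pearson intervals. Named genes are those with a protein-changing or splice member, the 10 with most members, and every gene of the role lists with a member. Listed genes without a member, and those singled out for their position, were chosen after seeing their values. The members and lists were chosen with earlier results of these data known. No statistical test was made, since the rule used the same reads. Depth, share, genotype, line, annotation row and exon base were varied. On simulated data, the rule recovered the known state of 3000 of 3000 sites, and 2060 of 2060 planted coding positions were placed correctly. No simulated site was set near the share limit, so this checks the code and not how the rule performs on real reads. Software was Python 3.11.15 with matplotlib 3.10.9, numpy 2.4.6, pandas 2.3.3 and scipy 1.17.1.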

Additional observations from a re-analysis of the deposited data

How the results depend on the processing

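The number of members ranged from 276, with at least 20 reads in every line, to 326, with no minimum beyond 1 read, beside 309. All 309 were shared with the latter, which added 17, and with the O48 line alone, which added 5. A share of 0.95 kept 306 and homozygous genotypes 308. Genes with a member numbered 51 or 52. Counting in RefSeq coding exons only, chosen after seeing the data, gave 67 nonsynonymous and 90 synonymous positions. Of 47 alternatives, 43 left the value within the set limits, which for counts was a wide 1.5-fold. Some changed nothing in this window, such as keeping olfactory and vomeronasal receptor genes (309 members). The 43 therefore say little about stability. With the exons of coding genes only, which hold 288 members, the density was 75.5 per 100 kb. Relative to the other fixed positions of chromosome 3, the median depth of members was 1.07 for O48 and ΔDSM-O48-1 alike and 1.03 for ΔDSMD-O48-2, above 1 rather than below it, and the cause was not tested. No paired analysis was possible because each line had 1 library. Depth limits the calls in *Gon4l* and *1500004A13Rik*, and the table lists variant sites only, so bases without an entry were not assessed.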
